A study of Mus musculus with 2 samples.

Results

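The 45 genes described here encode the core autophagy machinery of the mouse and the regulators of mTORC1, the kinase complex that restrains it. They were listed by symbol and matched to the deposited tables by Ensembl gene ID through the GENCODE mouse M21 annotation. Of the 45, 44 had a row in both tables of 20505 genes, and all 44 reached at least 1 FPKM in a library (FPKM, reads scaled by transcript length and library size). Atg2a is not analysed here. The compared set of genes at 1 FPKM or more held 12905 genes.

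Primary hepatocytes of C57BL/6 mice had been freed from the liver by perfusion with type II collagenase and cultured with serum. They were infected overnight with an adenovirus for β-Gal, a bacterial enzyme that serves as a control, or for HuR, the product of Elavl1 and a protein that binds RNA. Each group was 1 library, and both had received a virus. The sex, age and number of mice, any pooling of animals and the virus dose are not stated in the labels. Where 2 levels are given for a gene, the first is from the β-Gal library and the second from the HuR library. Elavl1 stood at 9.67 and 4480 FPKM, in the direction of the labels. The FPKM steps implied library totals of 18357017 and 17671387 reads.

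Autophagy delivers cytoplasm to lysosomes inside a double membrane. A ULK1 kinase complex starts it, a phosphatidylinositol 3-kinase complex marks the forming membrane, and a pair of linked conjugation reactions attach small ATG8 proteins to lipid. Cargo receptors then tether protein aggregates or organelles to those ATG8 proteins. mTORC1 senses amino acids, insulin and energy, and it blocks the ULK1 complex when nutrients are plentiful. In hepatocytes autophagy supplies amino acids in fasting and clears mitochondria, endoplasmic reticulum and lipid droplets.

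Differences are on the scale log2((HuR FPKM + 1)/(β-Gal FPKM + 1)), and a gene was called at 2-fold on that scale. Since each group was a single library, no replicate error, test or p-value can be given. Folds printed for a gene are ratios of the FPKM values themselves, whereas counts of genes past a threshold use the log2 scale with its pseudocount. The range after a fold is a 95% exact Clopper-Pearson interval on recovered reads, which covers counting error only. Bulk values cannot tell fewer cells of a type apart from less RNA per cell. How FPKM was calculated is not given. Its steps matched the mean length of the annotated transcripts for 30 of the 44 members, and that length was taken for all. A level set beside that of another gene depends on the length used, while a ratio of FPKM values does not. The 1 FPKM filter and the calls with a pseudocount depend on it too, and neither was repeated with another length.

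Of the 44 members, 0 were higher by 2-fold or more with HuR, where 5.35% of all compared genes were. Another 2, Deptor and Mtor, were at least 2-fold lower (4.55%), where 8.31% of all compared genes were. At 1.5-fold, 3 members were higher and 9 lower (6.82% and 20.5%), beside 12.0% and 23.4% of all compared genes. The remaining 32 lay within 1.5-fold on the log2 scale with its pseudocount. They include Mlst8 and Ulk2, whose FPKM ratios were 1.87-fold and 1.53-fold lower. The median log2 difference of the members was -0.24, and that of all compared genes was -0.17. Values below 0 were found for 28 of the 44 members and for 7831 of the 12905 compared genes. At both thresholds and in both directions the share of members called was below that of all compared genes, though close to it for lower genes at 1.5-fold. The members were also more abundant, with a median of 27.0 FPKM against 12.7 for all compared genes in the β-Gal library. The part of that level in these shares was not tested.

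**Figure D1:**
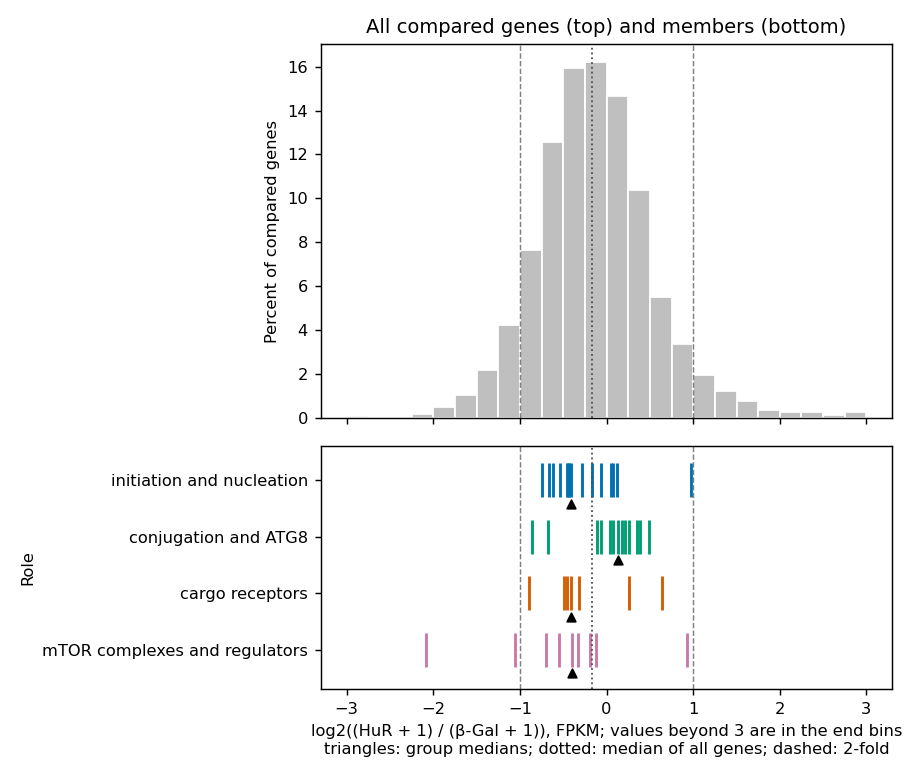
Percent of the 12905 compared genes by log2 difference between the HuR and β-Gal libraries (top, bins of 0.25) and each of the 44 members by role (bottom, 1 line a gene). Most members lie within 2-fold, with group medians of -0.41, 0.13, -0.41 and -0.40 from top to bottom, and Deptor stands alone at -2.08.

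Levels spanned 2.11 to 1184 FPKM with β-Gal and 1.13 to 1852 FPKM with HuR, with Mlst8 lowest and Sqstm1 highest in both. The members together took 0.437% and 0.505% of reads. Sqstm1 alone accounted for 0.145% and 0.226% of reads.

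**Figure D2:**
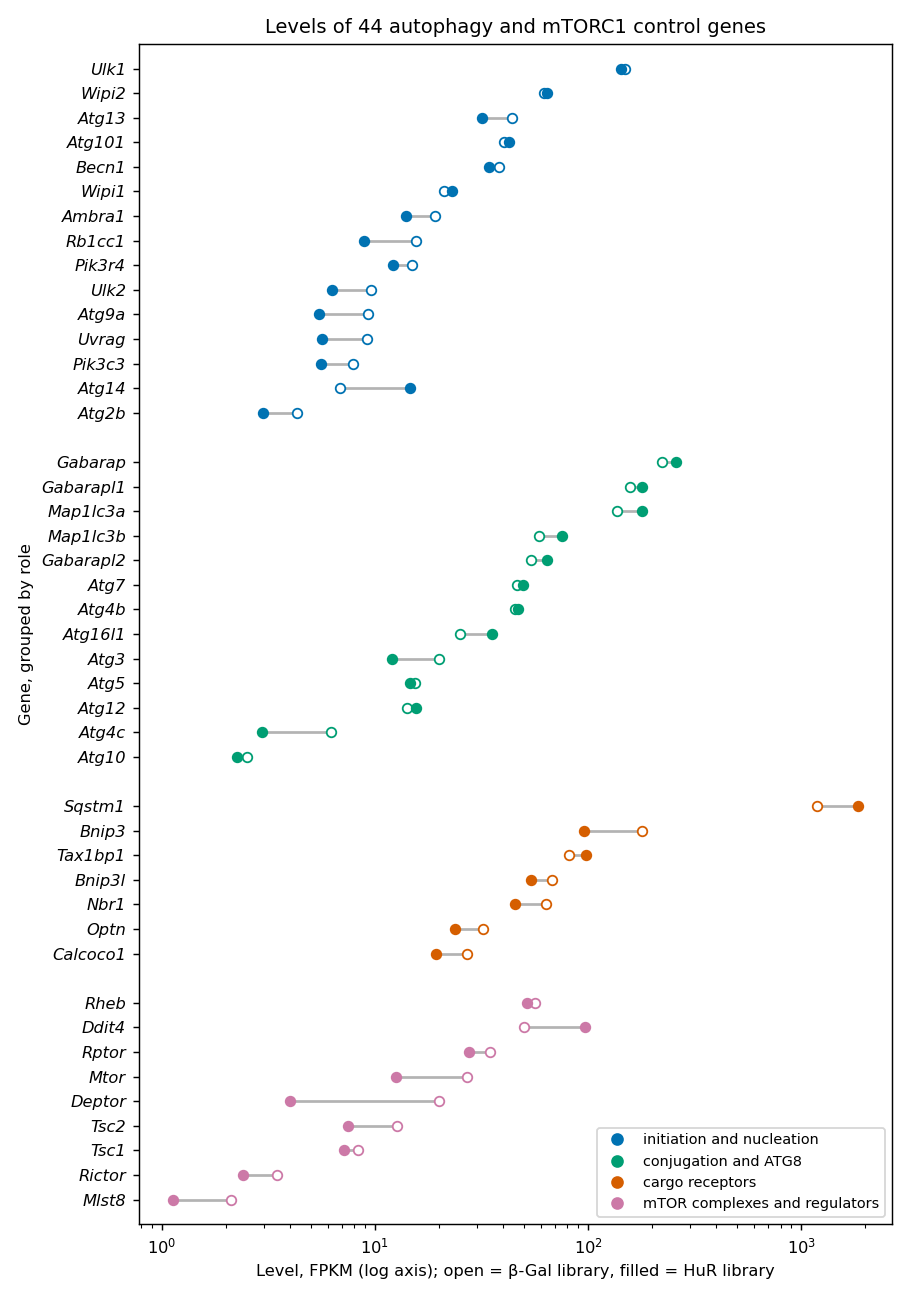
FPKM of the 44 members on a log axis, by role, with open circles for the β-Gal library and filled circles for the HuR library, 1 library each. Sqstm1 is the most abundant member in both libraries, and the line between circles is longest for Deptor (20.1 and 3.98 FPKM).

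The clearest difference among the members was in Deptor, which encodes an inhibitory subunit that binds mTOR in both of its complexes. In GRCm38, Deptor (ENSMUSG00000022419) occupies chr15:55112317-55259271 on the plus strand. Its level was 20.1 FPKM with β-Gal and 3.98 FPKM with HuR, 5.04-fold lower (4.40 to 5.81). Estimated reads were 1282 and 245. Its log2 difference of -2.08 was at percentile 0.263 of all compared genes. Deptor was the only member whose counting interval lay wholly beyond 2-fold.

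Mtor, the kinase subunit itself, stood at 27.1 and 12.5 FPKM, from 1543 and 686 reads. It was 2.17-fold lower (1.98 to 2.37), with a log2 difference of -1.06 just past the 2-fold threshold. The call was lost at a pseudocount of 5 (-0.87), with the overall median set to 0 (-0.89), and after the trend with GC content and length was removed (-0.98 or -0.81). Per kilobase of all exon bases Mtor stood lower, at 8.31 and 3.84 FPKM, where a pseudocount weighs more. The call was not tested at that length. Among the other subunits, Rptor and Rictor differed less. Rptor, which recruits substrates to mTORC1, stood at 34.8 and 27.5 FPKM. Rictor, which defines mTORC2, stood at 3.47 and 2.39 FPKM. Mlst8, a subunit of both complexes, stood at 2.11 and 1.13 FPKM from an estimated 82.3 and 42.4 reads, and its interval was wide (1.87-fold lower, 1.27 to 2.77). That interval held all of the interval of Mtor, so these reads do not separate Mlst8 from Mtor.

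The brakes on mTORC1 did not differ in a common direction. Ddit4 encodes REDD1, a stress-induced protein that inhibits mTORC1 through the TSC complex. It stood at 50.3 and 96.3 FPKM, 1.91-fold higher (1.80 to 2.04). Its log2 difference of 0.92 was just under the threshold and passed it with the overall median set to 0 (1.09). Tsc2, the part of the TSC complex that turns off the GTPase RHEB, stood at 12.7 and 7.49 FPKM (1.70-fold lower, 1.46 to 1.98). Its partner Tsc1 stood at 8.34 and 7.16 FPKM, and Rheb, the GTPase that activates mTORC1, at 56.4 and 51.7 FPKM. Of the 9 mTOR genes, 8 were below 0 on the log2 scale as deposited and Ddit4 alone was above it, with a median of -0.40. Of all 12905 compared genes, 7831 were below 0 as deposited. With the overall median set to 0, 7 of the 9 mTOR genes were below 0, and 5 were once the GC and length trend was removed. Rictor, Tsc1 and Rheb turned to 0.15, 0.0015 and 0.11 with that trend removed and the median kept.

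**Figure D3:**
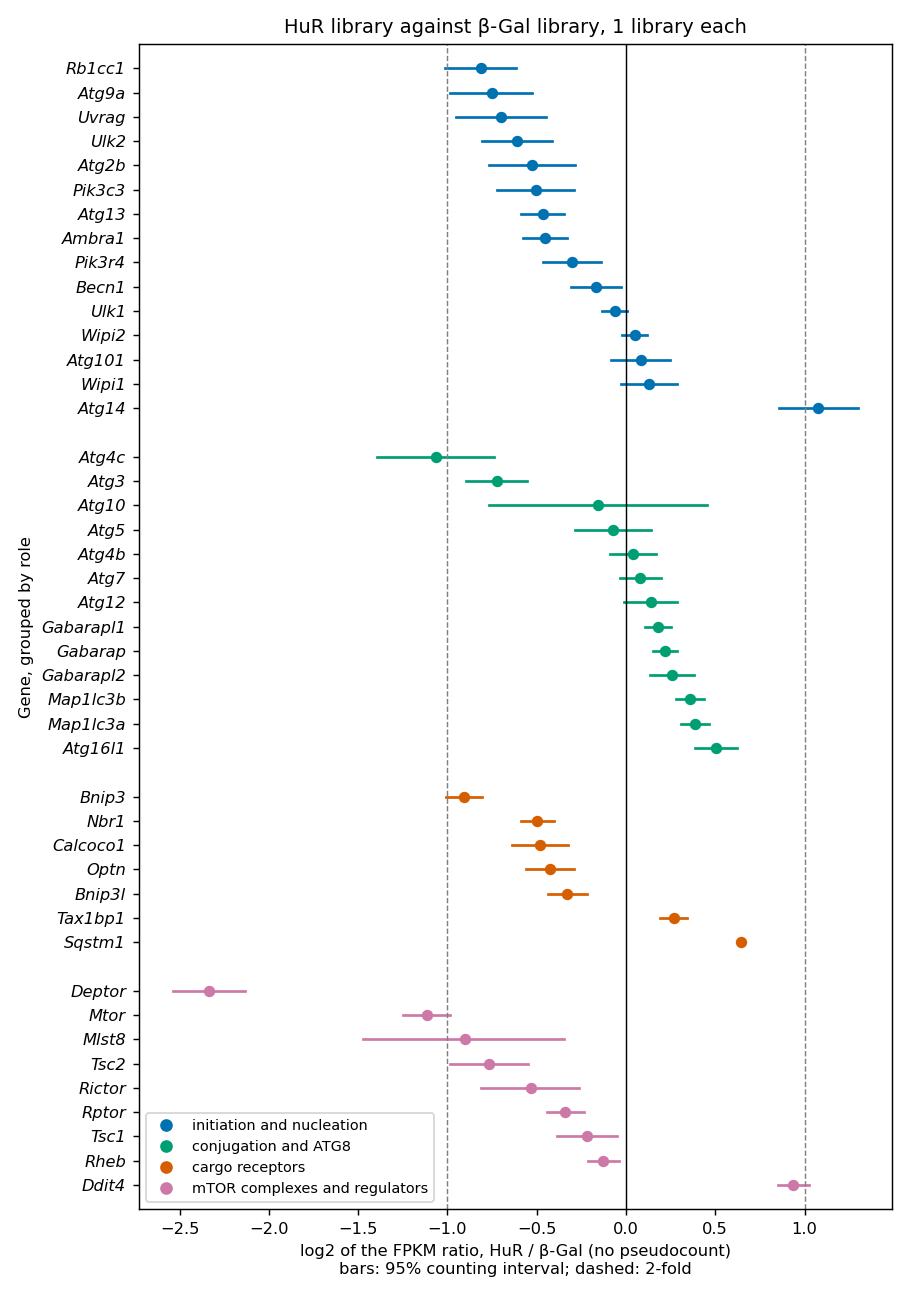
log2 of the FPKM ratio of the HuR library to the β-Gal library for the 44 members, by role, without a pseudocount, with bars for the 95% counting interval and dashed lines at 2-fold. Only the bar of Deptor lies wholly beyond a dashed line, and bars of 9 members span 0.

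Of the 15 genes of initiation and nucleation, 11 had lower and 4 higher values with HuR as deposited, 9 and 6 with the overall median set to 0, 12 and 3 with the GC and length trend removed, and 9 and 6 with both done. As deposited, 0 were past 2-fold in either direction, beside 5.35% higher and 8.31% lower of all compared genes. The median was -0.41. Of all 12905 compared genes, 7831 were lower and 5074 higher as deposited. In the ULK1 complex the levels moved unequally. Ulk1, the starting kinase, stood at 149 and 143 FPKM, which its counting interval does not separate (1.04-fold lower, 0.996 to 1.10). Its paralog Ulk2 stood at 9.56 and 6.27 FPKM, and the adaptor Atg13 at 44.1 and 31.9 FPKM. Rb1cc1, which encodes the scaffold FIP200, stood at 15.6 and 8.86 FPKM from 579 and 317 reads (1.76-fold lower, 1.53 to 2.02). Atg101, which stabilizes ATG13, stood at 40.1 and 42.5 FPKM. Once the GC and length trend was removed, Rb1cc1 was at -0.29 and not -0.75.

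Atg14 was the exception in the group. It encodes the subunit that directs the phosphatidylinositol 3-kinase complex to autophagosome formation sites, and it stood at 6.88 and 14.5 FPKM. The fold of 2.11 (1.81 to 2.46) rested on an estimated 254 and 517 reads. Its log2 difference of 0.98 lay just under the 2-fold threshold, at percentile 94.4 of all compared genes. It passed the threshold at a pseudocount of 0.1 (1.07), with the median set to 0 (1.14) and with the GC and length trend removed (1.11 or 1.28). Uvrag, which takes the place of ATG14 in a second form of the complex, went the other way at 9.19 and 5.66 FPKM (1.62-fold lower, 1.36 to 1.93). The shared subunits lay between these. Becn1, the scaffold Beclin 1, stood at 38.3 and 34.1 FPKM, the lipid kinase Pik3c3 at 7.91 and 5.57 FPKM, and the regulatory kinase Pik3r4 at 14.95 and 12.13 FPKM.

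Genes that expand the membrane split by family. Atg9a, the lipid scramblase carried on vesicles, stood at 9.25 and 5.48 FPKM (1.69-fold lower, 1.44 to 1.98). Atg2b, which transfers lipid, stood at 4.30 and 2.99 FPKM, and Ambra1, a cofactor of Beclin 1, at 19.2 and 14.0 FPKM. The phosphoinositide readers Wipi2 and Wipi1 stood at 62.0 and 64.1 FPKM and at 20.98 and 22.92 FPKM, with counting intervals that held a ratio of 1.

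Of the 13 conjugation genes, 9 had higher and 4 lower values as deposited, 11 and 2 with the overall median set to 0, 7 and 6 with the GC and length trend removed and the median kept, and 10 and 3 with both done. As deposited, 0 were past 2-fold, beside 5.35% higher and 8.31% lower of all compared genes. The median log2 difference was 0.13. Of all 12905 compared genes, 5074 were higher and 7831 lower as deposited. All 5 ATG8 genes, which encode the small proteins joined to lipid, had slightly higher values with HuR as deposited, but 3 of 5 did with that trend removed. Their summed level was 630 and 757 FPKM. Map1lc3a stood at 137 and 180 FPKM (1.31-fold, 1.24 to 1.38) and Map1lc3b at 58.7 and 75.4 FPKM (1.28-fold, 1.22 to 1.36). Gabarap stood at 222 and 258 FPKM (1.16-fold, 1.11 to 1.22), Gabarapl1 at 158 and 179 FPKM, and Gabarapl2 at 53.9 and 64.4 FPKM. After that trend was removed and the median kept, Map1lc3a and Gabarapl1 turned to -0.19 and -0.08, while Map1lc3b stayed at 0.37.

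The enzymes that process and attach ATG8 proteins went both ways. Atg4c, a protease that trims ATG8 precursors, stood at 6.21 and 2.97 FPKM from 250 and 115 reads (2.09-fold lower, 1.67 to 2.63). The log2 difference with the pseudocount was -0.86 and reached -1.04 at a pseudocount of 0.1. Its paralog Atg4b stood at 45.4 and 46.7 FPKM. Atg3, the E2-like enzyme that passes ATG8 to lipid, stood at 19.88 and 12.03 FPKM (1.65-fold lower, 1.47 to 1.86). Atg16l1, which places the conjugation machinery on the membrane, had the largest upward difference of the 13 genes, at 25.1 and 35.5 FPKM (1.42-fold higher, 1.31 to 1.54). The intervals of Atg4b, the E1-like enzyme Atg7, the E2-like enzyme Atg10, and Atg5 and Atg12, whose products are joined to each other, held a ratio of 1.

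Cargo receptors were divided between Sqstm1 and Tax1bp1 on one side and 5 genes on the other. Among the 12905 compared genes, 5074 were higher and 7831 lower as deposited. Sqstm1 encodes p62, which brings ubiquitin-marked cargo to the autophagosome and is itself degraded there. It stood at 1184 and 1852 FPKM, from 26563 and 39982 reads (1.56-fold higher, 1.54 to 1.59), and went from rank 64 to rank 35 among compared genes. Tax1bp1, another ubiquitin-binding receptor, stood at 81.2 and 97.7 FPKM (1.20-fold higher, 1.14 to 1.27). Bnip3, a mitochondrial outer membrane receptor for mitophagy that hypoxia induces, stood at 179 and 95.6 FPKM from 2368 and 1216 reads (1.87-fold lower, 1.75 to 2.01). Its paralog Bnip3l stood at 67.9 and 54.1 FPKM. Nbr1, Optn and Calcoco1, which encode further receptors or receptor-like proteins, stood at 63.8 and 45.2, at 32.0 and 23.8, and at 26.9 and 19.3 FPKM. The group had 0 of 7 members past 2-fold, beside 5.35% higher and 8.31% lower of all compared genes. So small a group holds few calls at such shares. Its median was -0.41, but Bnip3 reached -1.06 with the GC and length trend removed and the median kept.

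Levels compared between genes depended on the length used. The exon bases of a member added up to 1.00 to 7.26 times the mean transcript length, with a median of 2.81 times. Per kilobase of all exon bases, an alternative chosen after the values were seen, Ulk1 was at 29.8 and Sqstm1 at 431 FPKM in the β-Gal library. On that scale Map1lc3a (106) stood level with Gabarap (105), although its deposited value was lower. Annotated exons of other genes on the opposite strand covered 43.9% of the exon bases of Becn1, 28.3% of Gabarapl1, 22.5% of Mlst8, 22.3% of Bnip3, 17.6% of Uvrag and 17.3% of Sqstm1. For Atg9a, 32.6% was covered by genes on either strand. No strand setting is stated in the labels, so reads in those stretches cannot be assigned with certainty.

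Across all compared genes with a sequence (12678), the log2 difference rose with GC content (Spearman 0.33) and fell with transcript length (-0.31). These are descriptions across genes of the same pair of libraries. For the length of all exon bases the value was -0.34. Over the 44 members it was 0.22 for GC content and -0.25 for the length of all exon bases. After removal of the trend with the median kept, 10 of 44 members had changed sign, and the source of that trend was not tested.

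**Figure D4:**
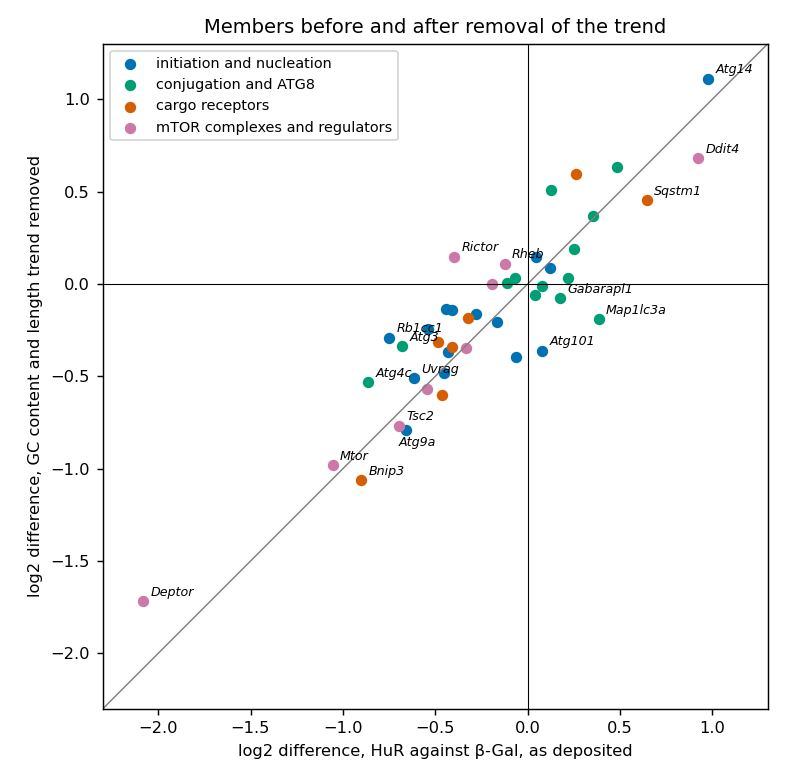
log2 difference of each member as deposited (horizontal) and after removal of the trend with GC content and length over all genes (vertical, median kept), with the line of equality. Deptor (-2.08 and -1.72), Mtor, Bnip3, Atg14, Ddit4 and Sqstm1 keep their side of 0, whereas Map1lc3a, Gabarapl1, Atg101, Rictor and Rheb cross it.

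HuR binds AU-rich stretches of 3′ untranslated regions, so the longest annotated 3′ region of each gene was searched on the transcript strand. The pentamer ATTTA was present in 35 of 44 members (79.5%) and in 68.1% of 11048 compared protein-coding genes. The longer form TATTTAT, which contains the pentamer, was present in 16 members (36.4%) and in 28.8% of those genes. Members with the pentamer had a median log2 difference of -0.16 and the 9 without it -0.41, whereas over all compared protein-coding genes the medians were -0.28 with it and 0.0047 without. For the longer form the medians were -0.26 with it and -0.20 without among the members, and -0.33 and -0.14 over all those genes. Regions with a motif were longer in both sets, for the longer form at a median of 1846.5 against 1052.5 bases in the members and 2117 against 804 bases over all. Mtor, Ddit4 and Tsc2 held no ATTTA. Deptor held 8 copies in 7136 bases and no TATTTAT, and neither did Atg14, Sqstm1 or Bnip3. A match of letters does not show binding.

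The stretches below, 30 bases each from GENCODE M21 transcripts (GRCm38), show TATTTAT in capitals in members on either side of 0. They lie at chr4:99259453-99259482 (plus strand, Atg4c), chr11:101581841-101581870 (plus, Nbr1), chr7:98885032-98885061 (minus, Uvrag), chr1:87792342-87792371 (plus, Atg16l1), chr6:52766695-52766724 (plus, Tax1bp1) and chr8:111953220-111953249 (plus, Gabarapl2). The first 3 genes were lower in the HuR library and the last 3 higher.
Atg4c: agtagtatctaTATTTATtttaattaggta
Nbr1: aacttagttggTATTTATaataaatggcga
Uvrag: ttcagcatctgTATTTATaaaataaaattg
Atg16l1: ggcacatctttTATTTATttaattatgtgt
Tax1bp1: gattgagtttgTATTTATaactagctataa
Gabarapl2: tttttaaaaatTATTTATtggtgttttgcc

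Promoter windows were taken from RefSeq (GRCm38.p6), from 250 bases before to 50 bases after a start listed there, and 37 of the 45 symbols matched. Such a start need not be the outer end of the gene in GENCODE M21. The windows of Atg7, Atg14 and Rheb lie wholly inside the spans of those genes. The span of Atg7 begins at chr6:114643097, while its window lies at chr6:114670846-114671145. The E-box CACGTG reads the same on both strands and is the core of the site bound by TFEB, the transcription factor that drives lysosome and autophagy genes. It lay in 6 of 40 member windows (15%, the genes Rheb, Atg7, Bnip3, Atg5, Atg14 and Atg3) and in 7.15% of 32851 windows. The longer form TCACGTGA, which contains it, lay in 1 member window, that of Atg3, and in 0.974% of all windows. Of the 6 genes, Atg14 was higher with HuR and Atg3 and Bnip3 were lower by at least 1.5-fold. The windows of these 3 are shown because they hold the same core and differ in direction, with CACGTG in capitals. They lie at chr14:47568385-47568684 (minus strand), chr16:45158579-45158878 (plus) and chr7:138909457-138909756 (minus).
Atg14: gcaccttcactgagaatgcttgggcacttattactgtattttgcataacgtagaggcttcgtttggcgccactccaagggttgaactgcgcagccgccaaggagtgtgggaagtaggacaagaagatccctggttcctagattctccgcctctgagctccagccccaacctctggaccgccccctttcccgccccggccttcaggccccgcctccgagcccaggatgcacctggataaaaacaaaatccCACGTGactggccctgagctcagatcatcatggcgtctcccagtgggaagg
Atg3: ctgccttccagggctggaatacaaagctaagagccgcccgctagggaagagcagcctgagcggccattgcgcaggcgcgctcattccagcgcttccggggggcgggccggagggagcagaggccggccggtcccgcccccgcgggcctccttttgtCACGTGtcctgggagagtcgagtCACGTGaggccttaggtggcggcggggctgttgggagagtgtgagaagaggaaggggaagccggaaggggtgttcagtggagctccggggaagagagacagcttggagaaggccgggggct
Bnip3: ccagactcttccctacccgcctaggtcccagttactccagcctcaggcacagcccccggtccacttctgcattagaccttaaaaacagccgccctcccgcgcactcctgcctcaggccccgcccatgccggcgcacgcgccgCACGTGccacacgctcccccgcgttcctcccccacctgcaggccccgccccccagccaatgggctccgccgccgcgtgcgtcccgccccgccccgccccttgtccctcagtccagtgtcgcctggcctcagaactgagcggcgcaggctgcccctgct

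Other autophagy genes had a median log2 difference of -0.30, with 1 of 30 compared genes at least 2-fold higher and 2 lower (3.33% and 6.67%, beside 5.35% and 8.31% of all compared genes). Trp53inp2, which binds ATG8 proteins and promotes autophagosome formation, stood at 30.4 and 8.06 FPKM (3.77-fold lower, 3.22 to 4.42). Atg4a, another ATG8 protease, stood at 13.3 and 5.77 FPKM (2.30-fold lower, 1.84 to 2.90), and its log2 difference of -1.08 became -0.91 with the overall median set to 0, which ended the call. Vamp8, which acts in fusion of autophagosomes with lysosomes, stood at 4.36 and 11.6 FPKM (2.65-fold higher, 2.13 to 3.31). Retreg1, a receptor for autophagy of the endoplasmic reticulum, stood at 20.4 and 9.73 FPKM (2.10-fold lower, 1.82 to 2.42). With the pseudocount its log2 difference of -0.997 lay just inside the threshold.

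Genes of amino acid sensing upstream of mTORC1 had 0 of 28 compared genes higher and 1 lower (3.57%, beside 8.31% of all compared genes), with a median of -0.14. The sestrins, stress-induced proteins that restrain mTORC1, diverged. Sesn2 stood at 21.5 and 41.8 FPKM (1.95-fold higher, 1.82 to 2.08), while Sesn3 stood at 2.60 and 0.654 FPKM (3.97-fold lower, 2.69 to 5.99) and Sesn1 at 2.57 and 2.65 FPKM. With the overall median set to 0, 1 of the 28 was higher and 0 lower. Rraga, a GTPase that brings mTORC1 to the lysosome, stood at 44.5 and 25.6 FPKM. Wdr59, a subunit of the GATOR2 complex, stood at 4.93 and 2.44 FPKM.

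Genes of growth factor and energy input and of mTOR outputs had 0 of 24 higher and 3 lower (12.5%, beside 8.31% of all compared genes), with a median of -0.39. The cap-binding protein Eif4e stood at 73.6 and 33.6 FPKM (2.19-fold lower, 2.02 to 2.37). Genes for its repressors went both ways. Eif4ebp2 stood at 53.8 and 23.8 FPKM (2.25-fold lower, 2.12 to 2.40). The more abundant Eif4ebp1 stood at 517 and 723 FPKM (1.40-fold higher, 1.37 to 1.43). The AMPK catalytic subunit Prkaa2, part of the energy sensor that opposes mTORC1, stood at 7.18 and 2.89 FPKM (2.49-fold lower, 2.21 to 2.79). Its paralog Prkaa1 stood at 9.20 and 9.87 FPKM, with a counting interval that held a ratio of 1. The AMPK regulatory subunit Prkag2 stood at 29.7 and 16.3 FPKM. With the median set to 0, 0 of the 24 were past 2-fold in either direction.

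Lysosome and TFEB family genes had the highest median of these lists, at 0.07, with 0 of 38 higher and 1 lower (2.63%, beside 8.31% of all compared genes). Asah1, the acid ceramidase, stood at 53.7 and 23.9 FPKM (2.24-fold lower, 2.03 to 2.47), and Lipa, the acid lipase, at 42.7 and 21.3 FPKM. Ctsd, the protease cathepsin D, stood at 785 and 1349 FPKM (1.72-fold higher, 1.69 to 1.75), and Hexa, a hexosaminidase subunit, at 30.7 and 48.8 FPKM. The call of Asah1 was lost with the overall median set to 0, which left 0 of 38 past 2-fold.

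**Figure D5:**
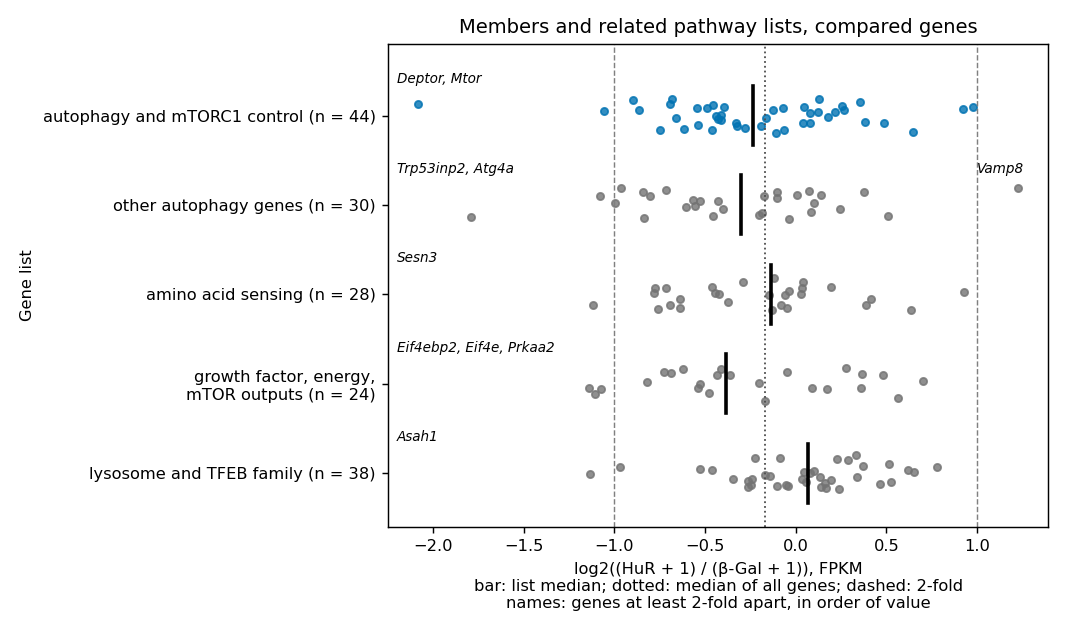
log2 difference of the 44 members and of 4 related lists, 1 point a compared gene, with list medians as bars. Medians run from -0.39 for growth factor and energy input to 0.07 for the lysosome list, and few genes of any list lie beyond 2-fold.

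Some markers of hepatocytes and of other cell types differed between the libraries. The 9 hepatocyte markers, of which 8 had a row, ranged from 82.1 to 25353 FPKM with β-Gal and from 69.3 to 27642 FPKM with HuR. Of the 8, 6 were above 0 and 2 below, beside 5074 and 7831 of all compared genes. Apob stood at 137 and 69.3 FPKM (1.98-fold lower, 1.93 to 2.03) and Hnf4a at 92.0 and 73.5 FPKM. Ttr stood at 817 and 1177 FPKM (1.44-fold higher, 1.41 to 1.47). The 11 Kupffer cell and macrophage markers summed to 65.8 and 142 FPKM, of which Cd68 made 39.97 and 90.4, with 4 of 7 compared at least 2-fold higher in HuR. The list was not uniform. Clec4f, Adgre1, Csf1r, Vsig4 and Ptprc, each at 1.54 FPKM or less, had counting intervals that held a ratio of 1. The 9 stellate cell and fibroblast markers summed to 13.5 and 1.92 FPKM, with all 5 compared at least 2-fold lower and 2 listed at 0 in HuR. All 5 passed the 1 FPKM filter through the β-Gal library alone, so the filter largely fixed that count. No gene of the series was listed at 0 in the β-Gal library, so a value of 0 could occur only with HuR. Levels in this list were low, at most 3.65 and 0.438 FPKM. The 7 endothelial markers summed to 13.0 and 20.7 FPKM, with 1 of 5 compared higher. The 7 cholangiocyte markers summed to 70.1 and 84.2 FPKM, with 1 of 6 compared higher and 2 lower. Krt7, the higher one, passed the filter through the HuR library alone, and Epcam and Cldn7, the lower ones, through the β-Gal library alone. Spp1 alone stood at 50.8 and 71.9 FPKM, and without it, a choice made after its values were seen, that sum was 19.3 and 12.4 FPKM. In the HuR library Cd68 and Spp1 lay above the lowest hepatocyte marker, Apob (69.3 FPKM). The part of other cell types in the values of Deptor, Sqstm1, Ctsd and the other members was not tested.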

How the data were processed

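RNA was sequenced from 1 β-Gal and 1 HuR library, grouped by their overexpression label. The authors deposited 1 FPKM value per gene and library. Per the submitters' processing notes, TopHat2, HTSeq 0.6.1 and the GRCm38 build were involved, with no role given. How the FPKM values were calculated, the annotation, the strand setting and any gene filter are not given in the sources used. In the β-Gal library 0 genes were listed at 0, and 2233 were in the HuR library. Among compared genes these were 0 and 73, and their part in the shares called was not tested. Identifiers of 20133 genes matched GENCODE M21.

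FPKM steps matched whole reads over the rounded mean transcript length. With the implied totals, 73.3% of matched genes and 30 of 44 members lay within 0.02 of a whole read in both libraries. Reads of the other members are estimates. Recovered reads served for intervals and shares, never for a count test. Read recovery, intervals and trend removal were tested on simulated data.

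The comparison took genes that reached 1 FPKM in a library, with a pseudocount of 1. The trend with GC content and mean transcript length was fitted with polynomials of degree 3 over all compared genes. Python 3.11.15, numpy 2.4.6, pandas 2.3.3 and scipy 1.17.1 were used. Members at least 1.5-fold apart and the 2 most abundant of each role were named, with further members added for their role. Each related list contributed up to its 4 largest differences, with some paralogs added after the values were seen. The members and lists were chosen with earlier results of these data known.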

Additional observations from a re-analysis of the deposited data

How the results depend on the processing

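Of the members, Deptor stayed at least 2-fold lower under all 7 alternatives of pseudocount, filter, centring and trend removal (-1.48 to -2.31). No paired analysis was possible because each group is 1 library, and no library could be left out. In each of the 7 the share of members called was below that of all compared genes in both directions, in some by little. All 7 reuse the same pair of libraries, and none allows for the higher level of the members. With the pseudocount at 0.1, 1 member was higher, Atg14, and 3 lower (2.27% and 6.82%), beside 1035 and 1762 of all compared genes (8.02% and 13.65%). In that setting the mTOR group had a median of -0.52, 5 other autophagy genes and 2 amino acid sensing genes were lower, and 1 growth factor and energy gene was higher. With the pseudocount at 5, 0 members were higher and 1 lower (2.27%), beside 260 and 330 of all genes (2.02% and 2.56%). Medians there were -0.22 for initiation and -0.21 for the mTOR group, with 0 other autophagy genes higher and 1 lower and 0 amino acid sensing genes lower. With a filter of 5 FPKM, 0 of 40 members were higher and 2 lower (5%), beside 444 and 806 of all genes (4.74% and 8.60%), and 0 amino acid sensing genes were lower. The filter removed 4 members.

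With the overall median set to 0, 2 members were higher (Atg14 and Ddit4) and 1 lower (4.55% and 2.27%), beside 960 and 660 of all genes (7.44% and 5.11%). Higher genes were then 59.3% of all calls, against 39.2% as deposited. Medians became -0.071 for the members, -0.24 for initiation, 0.29 for conjugation, -0.25 for cargo receptors and -0.23 for the mTOR group. In the related lists, 1 other autophagy gene was lower, 1 amino acid sensing gene was higher and 0 lower, and 0 genes were lower in the growth factor and lysosome lists.

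With the GC and length trend removed and the median kept, 1 member was higher (Atg14) and the 2 lower ones were Bnip3 and Deptor (2.27% and 4.55%), beside 539 and 828 of all genes (4.25% and 6.53%). Medians were -0.24 for initiation and 0.01 (0.0052) for conjugation. Lower genes numbered 0 in amino acid sensing, 1 in the growth factor list and 0 in the lysosome list. With that trend removed and the median set to 0, 1 member was higher and 1 lower (2.27% each), beside 748 and 480 of all genes (5.90% and 3.79%). Medians were -0.0030 for the members, -0.071 for initiation, -0.14 for cargo receptors and -0.17 for the mTOR group. Other autophagy genes then had 3 higher and 1 lower, and 0 were lower in the remaining 3 lists. At a threshold of 1.5-fold, 1555 of all genes were higher and 3026 lower, and 3 members were higher and 9 lower. The cause of these shifts was not tested beyond the construction of each alternative. Depth limited Mlst8 and Atg10, which rested on at most 82.3 reads a library.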
